A study of Rattus norvegicus with 4 samples.

Results

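Glycosyltransferases that start, branch, extend and cap mucin-type and terminal glycan chains were followed in the gastric corpus mucosa of rats given a depot somatostatin analogue. The members were all probe sets whose platform annotation names a single gene with a symbol of the Galnt, B3galt, B4galt, B3gnt, C1galt, Gcnt, Fut, St3gal, St6gal, St6galnac or St8sia families followed by a digit. The rule used no signal value and found 54 probe sets of 38 genes among the 15866 probe sets of the chip. A total of 27 genes had 1 probe set and 11 had several, up to 4.

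Mucins are carried to the stomach surface as proteins covered by sugar chains that are built in the Golgi. Polypeptide GalNAc-transferases attach the first sugar to serine or threonine, core enzymes add galactose or a branching N-acetylglucosamine (GlcNAc), further transferases lengthen the chain, and fucose or sialic acid caps its ends. In the stomach these chains hold water in the mucous gel and carry blood group and Lewis determinants, and many of the same enzymes also finish the chains of N-linked glycoproteins and glycolipids.

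The mucosa was scraped from the corpus of female Sprague-Dawley rats, 8 weeks old per the labels, fasted for a night before sampling. The vehicle group was a single Affymetrix RAE230A chip with RNA pooled from 8 animals, given the LAR vehicle according to the sample title. The source name of that sample mentions octreotide LAR, and the title was used. The treated group received octreotide LAR, a slow-release form of a somatostatin analogue, at 5 mg per animal, and was 3 chips, here pools 1 to 3, each with RNA pooled from 2 other animals. All samples are labelled 21 days. Because the control is 1 chip, any peculiarity of that pool cannot be told apart from treatment, and in scraped tissue fewer cells of a type and less RNA per cell cannot be told apart.

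Values are linear signals per probe set. Differences are octreotide LAR minus vehicle on the scale of log2(signal + 16), which understates the change of dim probe sets. A probe set was called dim, and not tested, where its mean log2 value fell below the 40th percentile of all probe sets, a signal near 144.7. That left 9520 probe sets in all, and among the members 30 probe sets of 25 genes; the other 24 member probe sets were dim, and 13 member genes had no tested probe set. Signals of different probe sets are not compared with each other, since each binds its target with its own strength. Median chip signals lay between 223.7 and 233.4. Defining markers of the labelled tissue were bright on all chips, with Atp4a, of the parietal cell proton pump, at 26692.5 on the vehicle chip and 23835.1 to 28931.7 on the treated chips. Squamous epithelium markers were also present and higher on the treated chips. All 11 on the chip lay above vehicle on every treated chip, 6 passed the limma test higher, none was at 0, and their summed signal was 1892 on the vehicle chip against 6164 to 9586 on the treated chips.

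No glycosyltransferase probe set passed the limma test at an adjusted p under 0.05: 0 of the 30 tested were called in either direction. Over all 9520 probe sets, the test called 0.0945% higher and 0.0105% lower. At an unadjusted p under 0.05, 2 member probe sets were higher (6.67% of 30) and none was lower, against 2.86% higher and 1.71% lower of all probe sets tested. These were B3galt5 and Gcnt3. The treated chips all lay above the vehicle chip for 11 of the 30 (36.7%) and all below it for 2 (6.67%), where the shares over all probe sets were 25.0% and 24.0%. Among the 11, B3galt5, St3gal1 and St3gal2 had vehicle signals under the filter level and were tested only through their treated signals. In turn, a B4galt1 probe set (1375250_at) below vehicle on every pool was left out as dim only through its treated signals. Its vehicle signal of 202.8 lay over the filter level. With the dim probe sets added, after seeing the data, 16 of 54 members (29.6%) lay above and 6 (11.1%) below, against 24.4% and 24.0% of all 15866 probe sets. The 11 tested above vehicle were B3galt5, Gcnt3, St3gal1, St3gal2, St6galnac6, Galnt6, Galnt11, B3gnt2, B4galt3 and 2 probe sets of Galnt2. The 2 below it were a probe set of Galnt1 and the tested probe set of St6gal1. With the brightest tested probe set of each gene, the median log2 difference was 0.08 over the 25 member genes and 0.00 over all 7150 genes. On pools 1, 2 and 3 the member median was 0.06, 0.07 and 0.18.

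**Figure D1:**
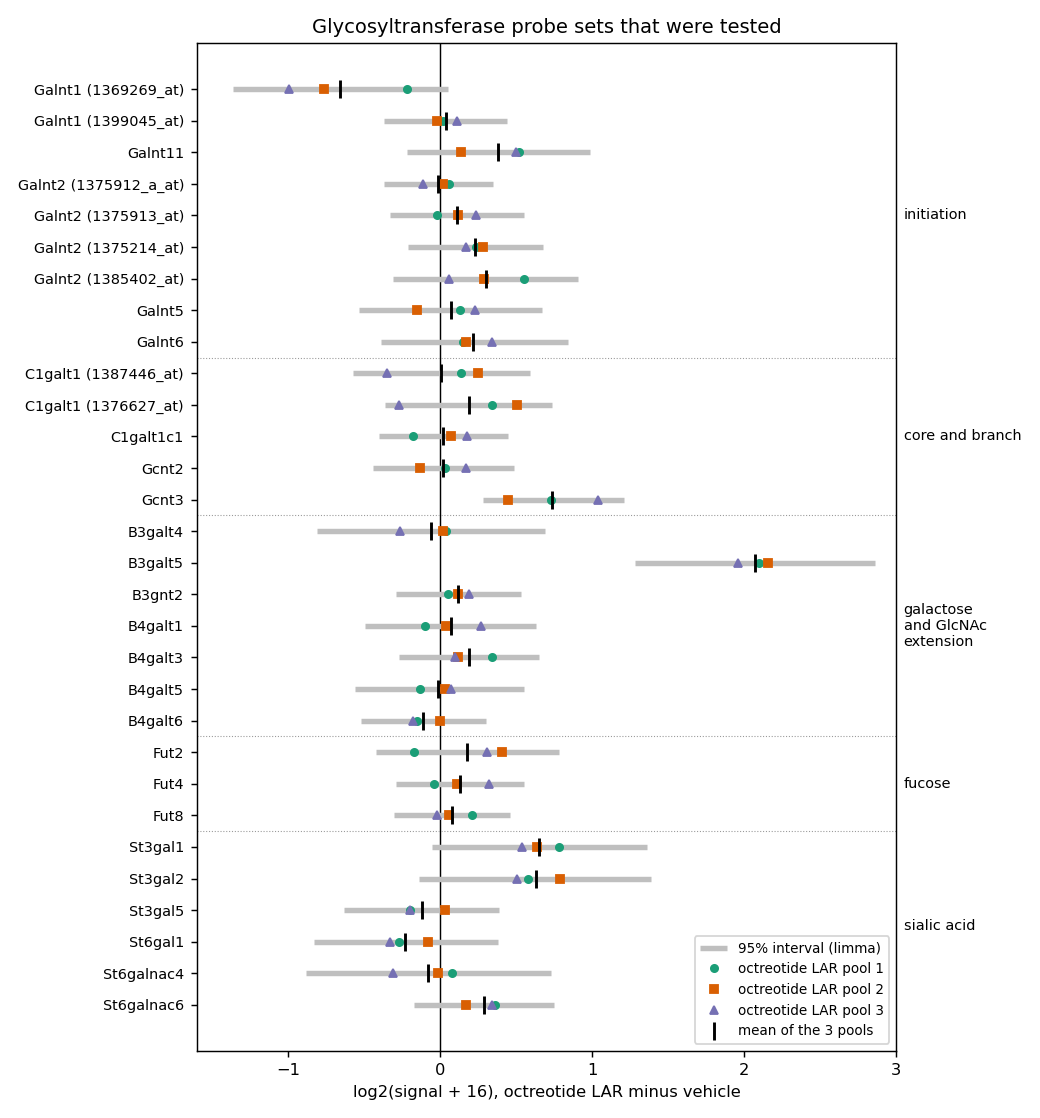
Differences of the 30 tested glycosyltransferase probe sets, on the log2(signal + 16) scale, octreotide LAR minus vehicle. Symbols are the 3 treated pools, black ticks their mean and grey bars the 95% interval from limma; the rows are ordered by role. B3galt5 stands far to the right at 2.07, Gcnt3 follows at 0.74, and all other intervals include 0.

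B3galt5 and Gcnt3 had the smallest p values of the members, and St3gal1 and St3gal2 were, with B3galt5, the members at least 1.4-fold above vehicle on every treated chip. Their starts are shown first because these are the members the results turn on. The windows run from 250 bases before to 50 bases after the gene start and come from RefSeq on the GRCr8 assembly, where 32 of the 38 member genes had an entry (St3gal1 not among them). B3galt5 is at chr11:49093945-49094244 on the plus strand, Gcnt3 at chr8:79573508-79573807 on the minus strand and St3gal2 at chr19:55833106-55833405 on the plus strand. Capitals mark matches, on either strand, to any of 6 motifs. These were TTTATG, the core of sites bound by CDX homeodomain factors, and GTTAAT, a half-site of HNF1. The motif AGATAA is bound by the GATA zinc finger factors, and AP-1 binds TGANTCA. Sp1 binds GGGCGG, and the general factor TBP binds TATAAA.
B3galt5: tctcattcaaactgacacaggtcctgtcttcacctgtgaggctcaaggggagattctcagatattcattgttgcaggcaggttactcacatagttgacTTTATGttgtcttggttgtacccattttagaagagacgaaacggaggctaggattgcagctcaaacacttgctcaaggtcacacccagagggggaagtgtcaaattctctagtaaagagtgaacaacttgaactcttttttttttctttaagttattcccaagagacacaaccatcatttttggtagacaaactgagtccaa
Gcnt3: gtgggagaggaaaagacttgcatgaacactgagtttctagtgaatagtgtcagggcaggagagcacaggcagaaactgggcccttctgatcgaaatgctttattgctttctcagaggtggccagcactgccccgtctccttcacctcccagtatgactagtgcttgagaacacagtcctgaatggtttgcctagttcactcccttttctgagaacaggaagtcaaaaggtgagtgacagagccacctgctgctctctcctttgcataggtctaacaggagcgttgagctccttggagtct
St3gal2: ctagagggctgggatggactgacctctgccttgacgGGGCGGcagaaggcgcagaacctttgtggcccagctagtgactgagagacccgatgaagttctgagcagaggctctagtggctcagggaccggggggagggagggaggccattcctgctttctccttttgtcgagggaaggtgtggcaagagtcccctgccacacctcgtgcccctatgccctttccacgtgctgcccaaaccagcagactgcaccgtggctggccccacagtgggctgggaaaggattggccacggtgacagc
The B3galt5 window held 1 match, to TTTATG, starting 152 bases before the gene start; 12.5% of all 27457 RefSeq windows and 3.12% of the 32 member windows hold that motif. The St3gal2 window held 1 match, to GGGCGG, starting 214 bases before the start; 34.9% of all windows and 53.1% of the member windows hold it. The Gcnt3 window held none of the 6. The other 4 motifs are in 7.37% (GTTAAT), 11.3% (AGATAA), 7.33% (TGANTCA) and 14.3% (TATAAA) of all windows, and no motif overlaps another in these 3 windows. A match describes the letters of the window and is no evidence of binding.

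B3galt5, which adds beta-linked galactose to GlcNAc and so builds the type 1 chains that carry Lewis a and Lewis b structures, read 43.0 on the vehicle chip and 236.4, 247.5 and 212.9 on pools 1, 2 and 3. The treated chips lay close together, at 232.3 ± 17.7 (SD, n = 3), all far above the single vehicle value. The log2 difference was 2.07 (95% interval 1.28 to 2.86), with an unadjusted p of 6.7e-05. This was rank 11 of 9520 by p, next after the 10 calls, and the limma adjusted p was 0.056. The vehicle signal lay under the filter level, so the probe set was tested only through its treated signals and the size depends on the pseudocount, from 1.47 with 64 to 2.40 with 1. The limma adjusted p was 0.015, 0.0015 and 0.0069 without pool 1, 2 and 3; each of these fits uses the lone vehicle chip again and has fewer treated chips to estimate the spread, so they add no independent support. Over all alternatives it ran from 0.0015 to 0.83, the last with dim probe sets kept. Squamous markers had median log2 differences of 2.16, 1.71 and 1.49 on pools 1, 2 and 3, where B3galt5 had 2.10, 2.16 and 1.96; their part in the result was not tested. Markers of intestinal epithelium went different ways. Fabp2, a fatty acid binding protein, and Lgals4, a galectin, were called higher (limma adjusted p = 0.047 and 0.029), while Muc2, the goblet cell mucin, and Cdx2, an intestinal transcription factor, were at -0.08 and -0.14, and Cdx1 was dim. The summed signal of these 5 was 4279 on the vehicle chip and 7759 to 9355 on the treated chips, with none at 0. Most of that sum was Lgals4, at 3199.7 on the vehicle chip and 6203.6 to 7232.5 on the treated chips. The part of these markers was not tested either.

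Gcnt3, the branching enzyme of mucin-secreting epithelia that makes core 2, core 4 and I branches, had 1304.5 on the vehicle chip and 2169.5, 1794.0 and 2704.1 on pools 1, 2 and 3. All treated chips lay above vehicle, and pool 2 came nearest to it. The mean was 2223 ± 457 (SD, n = 3), a 1.67-fold difference of 0.74 on the log2 scale (95% interval 0.28 to 1.21). It had an unadjusted p of 0.0042 and did not pass over all probe sets (limma adjusted p = 0.60). Leaving out pool 1, 2 or 3 gave a limma adjusted p of 0.029, 0.0075 or 0.70, with the same caution on the lone vehicle chip, and it reached 0.98 over all alternatives. On pools 1, 2 and 3, Gcnt3 had log2 differences of 0.73, 0.45 and 1.04, and the squamous medians on the same pools were 2.16, 1.71 and 1.49; their part in the result was not tested. Tff2, a trefoil factor secreted by mucous neck cells, had 6470.4 against 9203.8, 11251.5 and 8483.4 on pools 1, 2 and 3 (limma adjusted p = 0.70), and its part was not tested either.

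St3gal1 and St3gal2 both add sialic acid to galactose, and St3gal1 acts on the core 1 disaccharide, where it stops further growth of the chain. St3gal1 had 138.5 on the vehicle chip and 248.7, 224.0 and 209.4 on pools 1, 2 and 3. St3gal2 had 119.0 against 185.6, 217.7 and 176.2. For both, all 3 treated chips lay above the single vehicle chip, as they did for 25.0% of all tested probe sets. The log2 differences were 0.65 (95% interval -0.05 to 1.36) and 0.63 (95% interval -0.14 to 1.39), and neither passed (limma unadjusted p = 0.067 and 0.10; limma adjusted p = 0.9997 for both). Counted on the log2(signal + 16) scale, 3 of the 30 tested members lay at least 1.4-fold above vehicle on every treated chip, against 1.87% of all tested probe sets, and none lay as far below, against 0.861%. All 3 had a vehicle signal under the filter level and passed the filter through their treated signals, so the count leans on the filter. With dim probe sets kept, the same counts were 3 of 54 above, against 4.36%, and 1 of 54 below, against 3.09%. The higher squamous markers on these chips were given above, and their part was not tested.

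**Figure D2:**
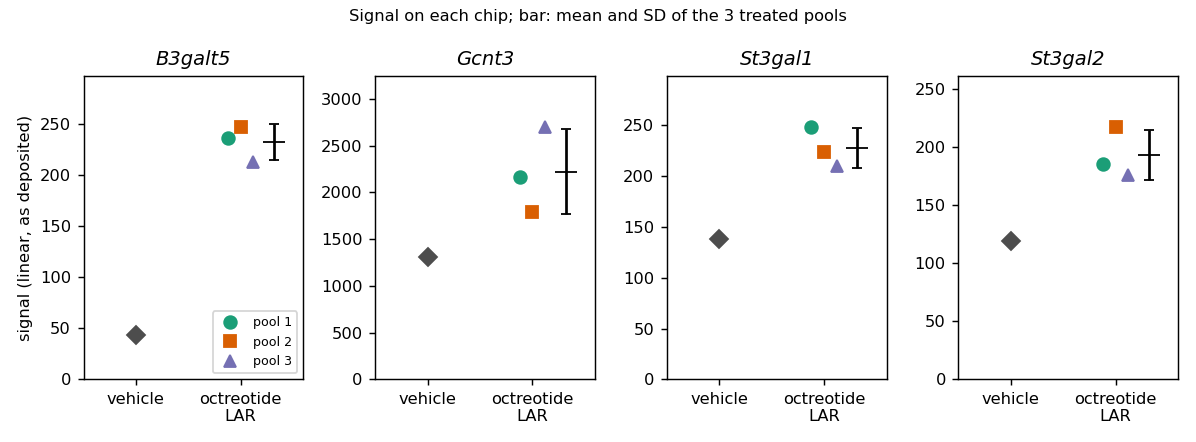
Signals on each chip, on linear axes from 0, for B3galt5, Gcnt3, St3gal1 and St3gal2; the diamond is the single vehicle chip, the coloured symbols are the 3 treated pools and the bar is their mean and SD. In each panel all treated pools lie above the vehicle chip, most clearly for B3galt5, at 212.9 to 247.5 against 43.0.

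Among the initiating enzymes, 5 of 8 genes were tested and none passed. In the mean 4 were higher, with a median of 0.07. Of all 7150 tested genes, 3560 were higher in the mean and 3590 lower, the counts to set beside this and the following groups. Galnt1 and Galnt2, broadly expressed transferases that begin most mucin-type chains, were read by several probe sets that did not move alike. The brighter Galnt1 probe set (1399045_at) had 1119.6 on the vehicle chip and 1135.5, 1100.3 and 1212.2 on the pools, a log2 difference of 0.04 (95% interval -0.37 to 0.44). The dimmer one (1369269_at) had 399.9 against 340.1, 230.4 and 193.6, all below vehicle, a difference of -0.66 (95% interval -1.36 to 0.05; limma unadjusted p = 0.067). The 2 probe sets thus gave Galnt1 different values with overlapping intervals. The contrast between them was not tested, and no direction is drawn for the gene. The 4 Galnt2 probe sets were all tested and lay between -0.01 and 0.30, the brightest at 2634.2 against 2619 ± 162 (SD, n = 3).

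Galnt6 had 240.7 on the vehicle chip and 269.1, 273.8 and 308.9 on the pools, a difference of 0.22 (95% interval -0.39 to 0.84). Galnt11 had 258.7 against 376.7, 285.8 and 371.3, a difference of 0.38 (95% interval -0.22 to 0.99). Both lay above vehicle on every pool, and each interval reached below vehicle. Galnt5 went both ways, with 300.5 against 318.6 ± 44.3 (SD, n = 3). Galnt7, which adds further GalNAc next to sugars already in place, was dim, with 144.5 against 151.7 and 172.0 on pools 1 and 2 and only 3.6 on pool 3, so its mean rests on that chip. Galnt10 and Galnt16 were dim as well.

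All 4 core and branching genes were tested, and only Gcnt3, described above, lay on 1 side of vehicle on every pool. Of all 7150 tested genes, 1800 lay above vehicle on every pool and 1716 below. C1galt1, the enzyme that adds galactose to form core 1, was read by 2 tested probe sets that followed each other across the chips. The brighter had 1297.0 on the vehicle chip and 1640.2, 1857.9 and 1069.3 on pools 1, 2 and 3, and the dimmer had 474.6 against 523.0, 566.9 and 368.7. Both were above vehicle on pools 1 and 2 and below it on pool 3, so pools 2 and 3 lay farther from each other than either lay from vehicle. Their log2 differences were 0.19 (95% interval -0.36 to 0.74) and 0.01 (95% interval -0.57 to 0.59). C1galt1c1, the chaperone Cosmc that C1galt1 needs to be active, had 1446.6 against 1272.5, 1520.3 and 1638.4, and pool 3, where C1galt1 was lowest, was its highest. Gcnt2, the I-branching enzyme, had 732.9 against 748.2 ± 80.3 (SD, n = 3), a difference of 0.02 (95% interval -0.44 to 0.49).

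**Figure D3:**
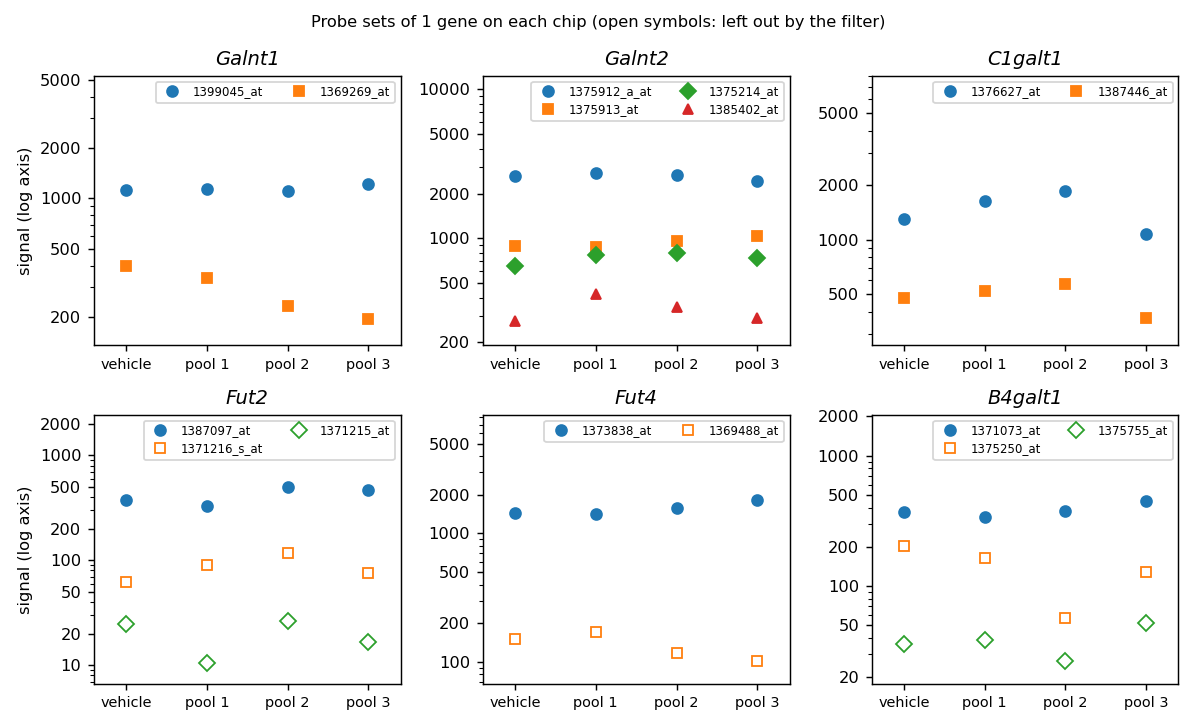
Signals of each probe set of 6 genes on the vehicle chip and the 3 treated pools, on log axes; open symbols are probe sets left out as dim. The 2 C1galt1 probe sets share a low value on pool 3, at 1069.3 and 368.7, while for Galnt1 only the dimmer probe set lies below vehicle on every pool.

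Of the enzymes that lengthen chains, 7 of 8 genes were tested, 4 higher and 3 lower in the mean, with a median of 0.07 and B3galt5 alone beyond the others. B3gnt2, which adds GlcNAc to build poly-N-acetyllactosamine, had 1032.5 on the vehicle chip and 1071.0, 1120.2 and 1179.8 on the pools, a log2 difference of 0.12 (95% interval -0.29 to 0.53). B4galt1, a main galactosyltransferase of N-acetyllactosamine, had 368.2 against 342.0, 379.8 and 446.6. B4galt3 of the same family had 656.9 against 835.7, 713.0 and 707.6, a difference of 0.19 (95% interval -0.27 to 0.65). These values were slightly above vehicle or straddled it.

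B4galt5 and B4galt6, which make the lactosylceramide of glycolipids, had log2 differences of -0.01 (95% interval -0.56 to 0.55) and -0.11 (95% interval -0.52 to 0.30). B4galt6 had 1274.2 against 1147.4, 1277.5 and 1123.5. B3galt4, a ganglioside galactosyltransferase, had 186.5 against 192.6, 189.5 and 153.5. The other gene of the B3galt family on the chip thus had a difference of -0.06 (95% interval -0.81 to 0.69); the contrast between B3galt4 and B3galt5 was not tested. B4galt2 was read by 3 dim probe sets. A dim B3gnt2 probe set (1376382_at) lay on both sides of vehicle, with 46.6 against 87.6, 5.6 and 3.4. A dim B4galt5 probe set (1389898_at) did so as well, with 52.5 against 16.6, 22.5 and 73.3. A dim B4galt1 probe set (1375250_at) was below vehicle on every pool, with 202.8 against 163.7, 56.9 and 127.6, unlike the tested one. Its vehicle signal lay over the filter level, so it was left out only through its treated signals.

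Fucosyltransferases were tested for 3 of 5 genes, with a median of 0.13. All 3 were higher in the mean, as were 3560 of all 7150 tested genes. None was higher on every pool, as 1800 of the 7150 were. Fut2, the secretor enzyme that makes the H structure in epithelia, had 373.9 on the vehicle chip and 329.7, 501.2 and 466.9 on the pools, a log2 difference of 0.18 (95% interval -0.42 to 0.78). Fut4, a Lewis x transferase, had 1450.5 against 1408.7, 1566.4 and 1811.6, a difference of 0.13. Fut8, which adds the core fucose of N-glycans, had 1992.4 against 2306.5, 2071.0 and 1964.4, a difference of 0.08 (95% interval -0.30 to 0.46). Fut2, Fut4 and Fut8 thus each had a pool on the other side of vehicle.

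Fut1, the other H transferase, was dim and not tested. It had 129.3 on the vehicle chip and 46.2, 65.9 and 69.0 on the pools, and it was the 1 member at least 1.4-fold below vehicle on every pool when dim probe sets are kept. A dim Fut2 probe set (1371216_s_at) had 62.3 against 89.6, 118.7 and 75.3, and another (1371215_at) went both ways. A dim Fut4 probe set (1369488_at) had 151.2 against 172.4, 117.2 and 101.5, a log2 difference of -0.22, unlike the tested one. Fut9, which also makes Lewis x, was dim at 24.5 against 20.2, 75.9 and 39.7.

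Sialyltransferases were tested for 6 of 13 genes, 3 higher and 3 lower in the mean, with a median of 0.11 and none called. Besides St3gal1 and St3gal2, St6galnac6, a sialyltransferase of GalNAc residues in glycolipids, lay above vehicle on all pools, with 585.0 on the vehicle chip against 755.0, 662.2 and 745.4, a log2 difference of 0.29 (95% interval -0.17 to 0.75). St6gal1, which caps N-glycan antennae with alpha-linked sialic acid, lay below vehicle on all pools, with 325.6 against 268.0, 306.5 and 255.2, a difference of -0.23 (95% interval -0.83 to 0.38). St3gal5, the GM3 synthase that opens the ganglioside series, had 512.1 against 443.3, 523.9 and 444.1. The tested St6galnac4 probe set had 164.3 against 174.8, 163.4 and 129.8. The sialyltransferases thus lay on both sides of vehicle.

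The dim sialyltransferases included the 4 St8sia genes measured here, St8sia1 to St8sia4, whose products add sialic acid to sialic acid, as in polysialic acid. St8sia4, a polysialyltransferase, had 81.9 on the vehicle chip and 161.8, 158.6 and 82.9 on the pools, so pool 3 was at the vehicle value. St3gal3 had 63.0 against 111.7, 101.7 and 70.2, and St6galnac3 had 140.1 against 107.5, 104.3 and 73.6. A dim St6gal1 probe set (1370714_a_at) had 61.9 against 63.9, 8.0 and 38.8, so pool 1 was above vehicle, unlike the tested one. Over all roles, 9 of the 24 dim member probe sets had all treated chips on 1 side of vehicle, 5 above (20.8%) and 4 below (16.7%), against 23.5% and 23.9% of all 6346 dim probe sets. Signals of the 24 ran from 3.4 to 202.8.

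The spread between treated pools and the single vehicle chip both limit these comparisons. The spread was estimated from the treated pools only, so the intervals hold no measure of variation between vehicle pools. Residual SD on the log2 scale had a median of 0.14 over the tested members and 0.18 over all tested probe sets. The 95% interval reached a median of 0.55 to either side of the difference, and for 25 of the 30 members it lay wholly within a 2-fold change in either direction, as it did for 81.4% of all tested probe sets. The 5 exceptions were B3galt5, Gcnt3, St3gal1, St3gal2 and the dimmer Galnt1 probe set.

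Other genes of the pathway were taken from lists kept apart from the members, and no gene of them was called. Of the mucin proteins that carry these chains, 3 of the 6 on the chip were tested. Muc5ac, the main surface mucin, had 21219.6 on the vehicle chip and 27149.1, 24534.2 and 24295.9 on the pools, a log2 difference of 0.25 (95% interval -0.07 to 0.57). Muc1, a membrane mucin, had 4071.5 against 4769.5, 4595.8 and 4948.8, a difference of 0.23 (95% interval -0.11 to 0.57). Both lay above vehicle on every pool, and each interval reached below vehicle. The median difference of the list was 0.23.

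Of 19 tested genes of nucleotide sugar synthesis and transport, which supply the donors of these enzymes, 8 were higher and 11 lower in the mean, with a median of -0.02. The smallest p was that of Slc35b2, the Golgi carrier of the sulfate donor PAPS, with 624.0 for vehicle and 425.1, 395.4 and 480.3 on the pools (limma unadjusted p = 0.050, adjusted p = 0.9997). Gne, the first enzyme of sialic acid synthesis, followed with 596.1 against 416.9, 464.8 and 504.4 (limma unadjusted p = 0.15). Both lay below vehicle on all pools. Papss1 and Papss2, which make PAPS itself, led the 3 tested genes of glycan sulfation with differences of 0.28 and 0.21 and limma unadjusted p of 0.10 and 0.37.

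Mgat2 and Mgat1, which start the branches of N-glycans, had differences of 0.29 and 0.22, and the 4 tested genes of that list had a median of 0.08. Of the 6 tested terminal transferases outside the member families, B3galnt1, the globoside synthase, was at -0.37 and Ggta1, which makes the alpha-galactose epitope, at -0.21, with a list median of -0.06. Of the 9 tested exoglycosidases, which strip sugars from chain ends, Glb1, a beta-galactosidase, had 407.3 on the vehicle chip against 533.6, 566.0 and 591.9 (difference 0.45, limma unadjusted p = 0.067). Galc, the galactosylceramidase, was at -0.41 (limma unadjusted p = 0.12). The median of that list was -0.03. Each of these 6 lists, the mucins included, had tested genes on both sides of vehicle.

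**Figure D4:**
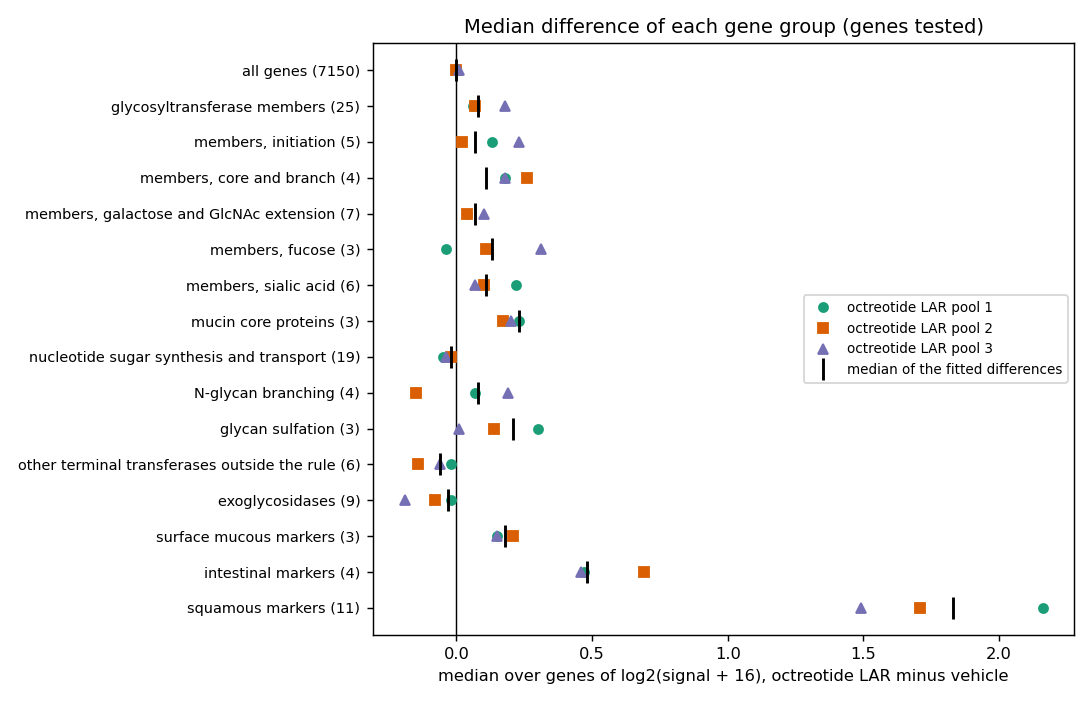
Median difference of each gene group on the log2(signal + 16) scale, octreotide LAR minus vehicle, for each treated pool (symbols) and for the fitted means (ticks), with the number of genes tested in brackets. The glycosyltransferases sit at 0.08 and all their role groups between 0.07 and 0.13, while the squamous markers sit at 1.83.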

How the data were processed

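Biotin-labelled cRNA was hybridised to RAE230A chips, per the labels' protocols. The authors deposited 1 linear intensity for each probe set on each chip; its algorithm and scaling were not given in the sources used here. With 2% trimmed from each end, chip means were 496.8 to 497.2, as scaling to 1 target gives, so a change in total mRNA cannot be seen. Per the file headers, the chips shared a lot, a wash protocol and a scan day, and each used its own fluidics module.

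Groups came from the sample titles. The vehicle sample's source name mentions octreotide LAR, so its labels differ. Signals were taken as log2(signal + 16), filtered at the 40th percentile of the mean, and fitted with limma 3.58.1 in R 4.3.3 (lmFit, eBayes with trend, two-sided, 2 residual and 11.5 prior degrees of freedom). P-values were adjusted by Benjamini-Hochberg over 9520 probe sets, with a threshold of 0.05. The fit gives the single vehicle chip the same variance as treated chips. The code was tested on simulated data. The number of chips limits the precision, and detection calls were not used here.

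Genes were named by the platform annotation, updated by Entrez ID (12748 of 12783 single-gene probe sets, and all 54 members, matched; 312 name several genes and 2771 are unnamed here). A gene's brightest tested probe set stood for it. Members with an unadjusted p under 0.05 or at least 1.4-fold from vehicle on every treated chip were to be named with all values; of each pathway list, the 2 genes with the smallest p. Members, lists, motifs and role groups were chosen with earlier results of these data known. Alternatives changed the pseudocount, filter, scaling, trend, pools and treatment of several probe sets.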

Additional observations from a re-analysis of the deposited data

How the results depend on the processing

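The count of 0 called members was unchanged with a pseudocount of 64, without the filter, with a filter at the 20th percentile, without the trend, after quantile normalization and after centring at the 75th percentile. It was 1 with a pseudocount of 1 (B3galt5, limma adjusted p = 0.048) and 1 to 2 when a treated pool was left out. The count of 2 members at an unadjusted p under 0.05 became 4 without the trend, with St3gal1 and St3gal2 added (limma unadjusted p = 0.018 and 0.024). The cause was not tested. Over all 9520 probe sets, limma called 10 with all chips and 53, 55 and 31 without pools 1, 2 and 3, 5 with either scaling, 7 with a pseudocount of 64 and 1 without the trend. It called 5 of 12693 at the 20th percentile and 0 of 15866 without the filter, where 776 had an unadjusted p under 0.05. The member median of 0.08 ran from 0.04 to 0.12, and B3galt5, Gcnt3, St3gal1 and St3gal2 stayed above vehicle under the 10 alternatives run for each. No paired analysis was possible because the vehicle and treated chips were pools of different animals. Signals near or under the filter level limit what can be said of the 24 dim probe sets and of B3galt5, St3gal1 and St3gal2.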
